A study of Macaca mulatta with 4 samples.

Results

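The 10 genes described here encode small heat shock proteins, heat-inducible and constitutive chaperones, and the factor that switches many of them on. They are CRYAB, HSPB1, HSPB8, BAG3, HSPH1, DNAJB1, HSP90AA1, HSP90AB1, HSPA8 and HSF1. Each was taken as the row of the count table that carries its symbol, and all 10 of 10 were found among 33618 genes. They were chosen by symbol with the sevoflurane-against-control values of these same libraries already known, CRYAB for its lower level and the others to set beside it. Their folds and adjusted p-values therefore describe where they stand among all genes and are no independent test. All 10 passed the filter on low counts, as did 17693 genes in all.

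RNA was sequenced from the prefrontal cortex of wild-type infant rhesus macaques, 2 libraries labelled control (replicates 2 and 3; agent none) and 2 labelled sevoflurane (replicates 2 and 3). Per the labels' protocols, sevoflurane anaesthesia was breathed at about 2.5 to 3% for 4 hours on each of 3 occasions. The first was near postnatal day 7, with repeats 14 and 28 days later, and tissue was collected right after the last one. The sources used here do not give body temperature or the handling and sampling time of the controls. They also do not tie the replicates to separate animals, so p-values reflect only how much these samples vary, and that variation may be technical. Values of a group are given below with replicate 2 first and replicate 3 second.

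Molecular chaperones hold or refold proteins that have lost their shape. Small heat shock proteins bind unfolding proteins without using ATP, HSP70 proteins such as HSPA8 then refold them with J-domain partners such as DNAJB1 and exchange factors such as HSPH1 and BAG3, and HSP90 proteins finish the folding of kinases and hormone receptors. When unfolded protein accumulates, HSF1 is released from chaperones, forms trimers and raises transcription of the inducible members. In the brain, CRYAB is mostly a protein of oligodendrocytes and astrocytes, while HSPA8 and HSP90AB1 are abundant in nearly every cell.

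The libraries held 7793757 to 11706115 counts. Control replicate 3, the shallowest library, stood apart from the other 3 on the first principal component, with 71.92 against values from -35.15 to -8.93. No pair of libraries agreed within sampling noise. Markers of neurons and of glia were present in every library. Levels are CPM, read counts scaled to library depth with TMM factors (trimmed mean of M values), and are not corrected for gene length, so levels are compared between libraries and not between genes. A gene was called when the p from edgeR's quasi-likelihood test, adjusted after Benjamini and Hochberg across the 17693 tested genes, was under 0.05.

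CRYAB was the one called member, with a level about 4.18-fold lower after sevoflurane. HSPB8 was 2.10-fold lower in close replicates without passing the threshold. The HSP70 and HSP90 members, HSPH1, BAG3 and DNAJB1 had fitted differences of at most 1.24-fold in either direction. Among the 10 members 1 was called lower and 0 higher, where 0.537% of all tested genes were called lower, 0.0622% higher and 0.599% either way. At an unadjusted p under 0.05, 2 members were lower (CRYAB and HSPB8) and 1 was higher (HSP90AA1), where 5.57% of all tested genes were lower and 4.35% higher at that threshold. DESeq2 called CRYAB and HSPB8 lower and limma-voom CRYAB alone, and neither called a member higher. The median log2 fold change was -0.26 over the 10 members and -0.00 over all genes tested. Since the members were chosen with this contrast known, nothing is read from these counts.

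**Figure D1:**
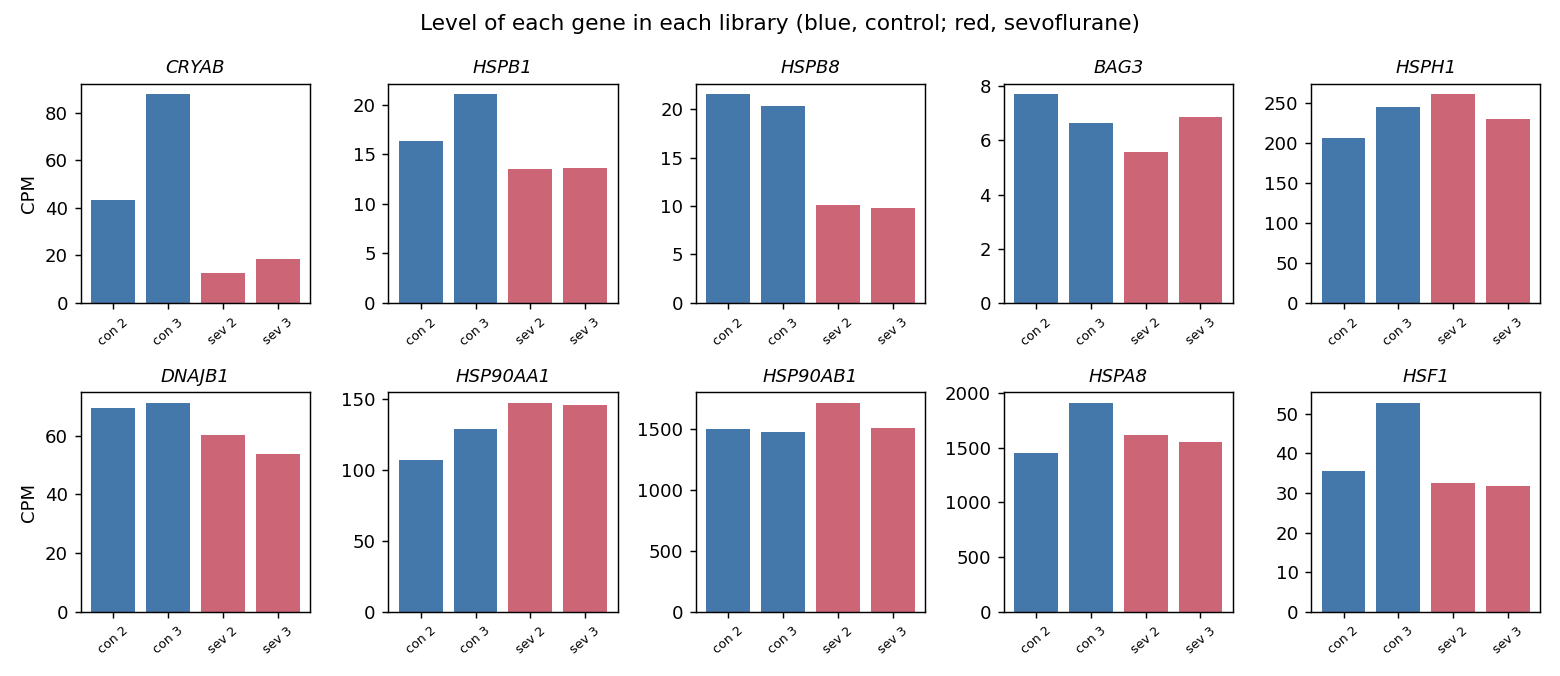
Level of each of the 10 genes in CPM (vertical axis, from 0, its own scale per gene) in the controls (blue) and sevoflurane replicates 2 and 3 (red), 1 bar per library. CRYAB stands at 43.4 and 87.9 CPM in the controls and at 12.6 and 18.6 CPM after sevoflurane, while HSPA8 and HSPH1 show overlapping groups.

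CRYAB, the alpha B-crystallin of lens, muscle and glia, was read 445 and 663 times in the controls and 148 and 219 times in the sevoflurane libraries. These counts correspond to 43.4 and 87.9 CPM in the controls and 12.6 and 18.6 CPM after sevoflurane. Both sevoflurane libraries lay below both controls, and the controls themselves differed more than the sevoflurane libraries did. On average CRYAB fell from 65.7 ± 31.5 CPM (SD, n = 2) to 15.6 ± 4.20 CPM (SD, n = 2). The log2 fold change was -2.07 (SE 0.32, 95% interval -2.80 to -1.33), with an edgeR adjusted p = 0.0304. CRYAB ranked 68 of 17693 genes by p-value, and 0.254% of tested genes had a log2 fold change as low or lower. Without control replicate 3, the library with the highest CRYAB level, the log2 fold change was -1.48 (adjusted p = 0.0416), a 2.78-fold lower level. Of the 11 alternatives, 1 did not call CRYAB, the fit with no filter on low counts (edgeR adjusted p = 0.064). The lowest adjusted p, 6.86e-18, came from edgeR with the replicate number as a block, although the labels do not say what that number marks. That fit leaves less data to estimate how each gene varies and leans more on other genes, so this p adds no firmer evidence.

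HSPB8, a small heat shock protein that works with BAG3 to pass damaged proteins to autophagy, had 21.6 and 20.3 CPM in the controls. It had 10.1 and 9.84 CPM in the sevoflurane libraries. The libraries within each group were nearly equal and the groups did not overlap. The control mean was 20.9 ± 0.903 CPM and the sevoflurane mean 9.96 ± 0.169 CPM (SD, n = 2 each). On the log2 scale the difference was -1.07 (SE 0.22, 95% interval -1.56 to -0.59, edgeR adjusted p = 0.0748). HSPB8 was not called, although its interval excludes 0. DESeq2 called it (adjusted p = 0.0282), and leaving out any 1 library kept its log2 fold change between -1.11 and -1.03. By edgeR its adjusted p was 0.00442 with the replicate number as a block, under the limit given for CRYAB. With no filter on low counts it was 0.13.

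HSPB1, a widely expressed, heat-inducible small heat shock protein, had 16.3 and 21.1 CPM in the controls and 13.5 and 13.7 CPM in the sevoflurane libraries. Both sevoflurane libraries were below both controls, but control replicate 2 was nearer to them than to the other control. The log2 fold change was -0.46 (SE 0.23, 95% interval -0.96 to 0.05, edgeR adjusted p = 0.574), and the gene was not called. The number of CRYAB counts per HSPB1 count, a ratio that needs no scaling between libraries, was 2.66 and 4.17 in the controls and 0.937 and 1.36 after sevoflurane. CRYAB was thus lower relative to HSPB1 in both sevoflurane libraries than in either control.

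BAG3, the co-chaperone that joins HSPB8 to HSP70, had 7.71 and 6.63 CPM in the controls and 5.55 and 6.87 CPM in the sevoflurane libraries. The groups overlapped. It had the lowest counts of the 10 genes, 50 to 81 per library, and its log2 fold change of -0.21 had a wide interval (-0.91 to 0.49, SE 0.31, edgeR adjusted p = 0.897). HSPB8 counts per BAG3 count were 2.80 and 3.06 in the controls and 1.82 and 1.43 after sevoflurane, lower in both sevoflurane libraries than in either control, though the low BAG3 counts make this ratio imprecise.

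**Figure D2:**
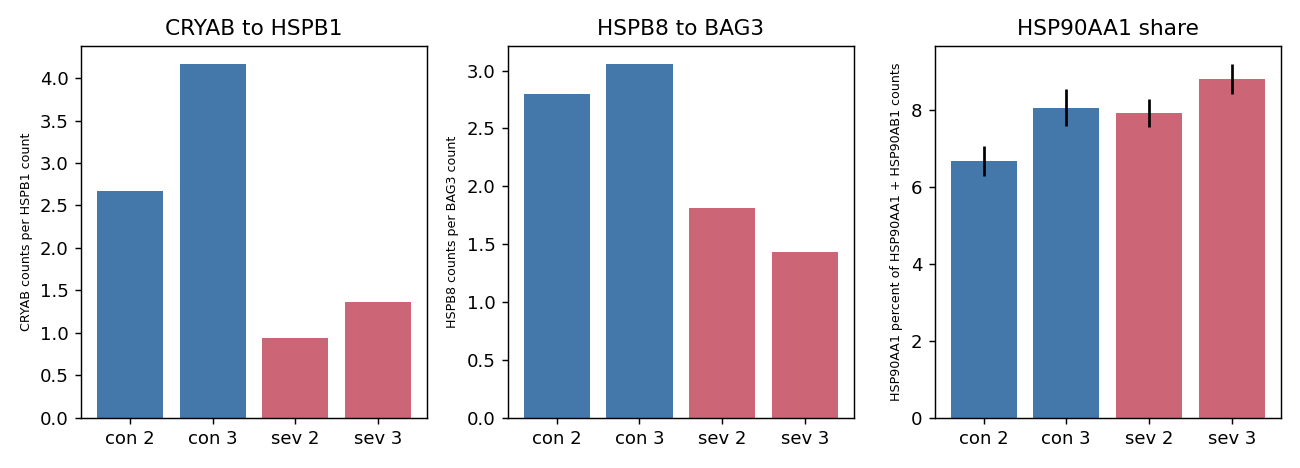
Ratios within each library (horizontal axis, control in blue, sevoflurane in red), with CRYAB counts per HSPB1 count on the left, HSPB8 counts per BAG3 count in the middle and the HSP90AA1 percentage of HSP90AA1 and HSP90AB1 counts on the right, where lines are exact 95% binomial intervals. The first ratio is 2.66 and 4.17 in the controls and 0.937 and 1.36 in the sevoflurane libraries.

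Among the chaperones of the HSP70 machine, DNAJB1, a heat-induced J-domain protein, had 69.3 and 71.2 CPM in the controls and 60.4 and 53.6 CPM after sevoflurane. Its groups did not overlap, and its log2 fold change was -0.30 (SE 0.15, 95% interval -0.63 to 0.03, edgeR adjusted p = 0.568). HSPH1, the HSP110 protein that exchanges nucleotide on HSP70, had 206.6 and 244.8 CPM in the controls and 260.8 and 229.3 CPM after sevoflurane. Its groups overlapped, and its log2 difference was 0.12 (SE 0.14, 95% interval -0.19 to 0.42). HSPA8, the constitutive HSP70 that also uncoats clathrin vesicles at synapses, had 1450 and 1909 CPM in the controls and 1618 and 1548 CPM after sevoflurane. Both sevoflurane libraries of HSPA8 lay between the controls, and its log2 fold change of -0.09 (SE 0.14, 95% interval -0.40 to 0.23) became 0.13 without control replicate 3. As folds, these 95% intervals run from 0.88 to 1.34 for HSPH1 and from 0.76 to 1.17 for HSPA8. They reflect only how much these samples vary and do not exclude a larger change between animals.

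Both cytosolic HSP90 genes had slightly higher values after sevoflurane, neither of them called. HSP90AA1, the stress-inducible form, had 107 and 128.9 CPM in the controls and 147.5 and 145.8 CPM in the sevoflurane libraries, so that the groups did not overlap. Its log2 fold change was 0.32 (SE 0.14, 95% interval 0.01 to 0.62, edgeR adjusted p = 0.493). HSP90AB1, the constitutive form, had 1501 and 1474 CPM in the controls and 1717 and 1514 CPM after sevoflurane, or 0.12 on the log2 scale (SE 0.11, 95% interval -0.13 to 0.37, edgeR adjusted p = 0.806). HSP90AA1 made up 6.66% of the counts of both genes in control replicate 2 (exact 95% binomial interval 6.28 to 7.05) and 8.04% in control replicate 3 (7.56 to 8.54). In the sevoflurane libraries the share was 7.91% (7.56 to 8.28) and 8.79% (8.40 to 9.19), and these intervals cover counting error only. The share in sevoflurane replicate 2 lay between those of the controls, so the groups overlapped in this share.

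HSF1, the heat shock transcription factor, had 35.5 and 52.8 CPM in the controls and 32.5 and 31.8 CPM in the sevoflurane libraries. The groups did not overlap, but control replicate 2 was closer to the sevoflurane libraries than to the other control. The log2 fold change was -0.45 (SE 0.21, 95% interval -0.92 to 0.02, edgeR adjusted p = 0.529), and it was -0.14 without control replicate 3. The activity of HSF1 is set mainly at the protein level, which these counts do not measure. In the RefSeq table used for names, HSF1 overlaps its neighbour DGAT1, whose log2 fold change was -0.23 (SE 0.23). The sources used here do not give the strand setting of the counting, so reads of the shared stretch could belong to either gene.

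In all, the groups did not overlap for 7 of the 10 members. The controls were higher for 5 of them (CRYAB, HSPB1, HSPB8, DNAJB1 and HSF1) and lower for the other 2, HSP90AA1 and HSP90AB1. For HSP90AB1 the gap was slight, with control replicate 2 at 1501 CPM and sevoflurane replicate 3 at 1514 CPM. Among all tested genes, the groups did not overlap in 41.2%, with sevoflurane lower in 20.4% and higher in 20.8%. HSPA8 and the HSP90 genes have many near-identical processed copies in primate genomes, and the treatment of reads with several matches is unknown here, so their levels are uncertain.

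**Figure D3:**
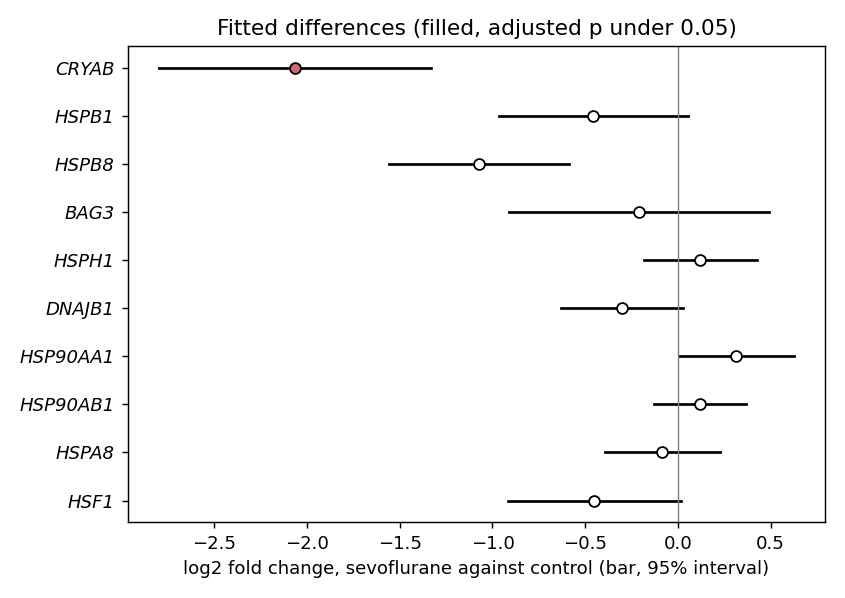
Fitted log2 fold change of sevoflurane against control (horizontal axis) for the 10 genes, with 95% intervals from the edgeR quasi-likelihood fit, and a filled point where the adjusted p is under 0.05. CRYAB at -2.07 is the one filled point, and the interval of HSPB8 (-1.56 to -0.59) also lies left of 0, while that of HSP90AA1 (0.01 to 0.62) lies just right of it.

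Over the 4 libraries the genes with profiles most like that of CRYAB were mostly genes of myelin. By a rule that took the 5 named genes of at least 20 CPM with the most similar profile, out of 7794 candidates, these were CARNS1, MBP, MAG, FA2H and MAL. Likeness was the distance between log2 CPM profiles over the 4 libraries, each centred on its own mean. MBP, MAG and MAL encode myelin proteins, FA2H makes the 2-hydroxylated fatty acids of myelin lipids, and CARNS1 is carnosine synthase. Their distances from CRYAB were 0.16 for CARNS1, 0.17 for MBP, 0.19 for MAG, 0.28 for FA2H and 0.30 for MAL. The distance was 1.29 between CRYAB and HSPB8, 1.67 between CRYAB and HSPB1, and 2.03 between CRYAB and HSPA8. The profile likeness includes the group difference by which CRYAB was chosen, and with 4 libraries it is a description.

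Markers of mature oligodendrocytes, the myelin-forming cells, moved in the same order as CRYAB. Of 21 listed, 20 were tested, 13 were called lower and 0 higher, with a median log2 fold change of -1.73. TF was the one marker with counts near 0 (4, 0, 0 and 0). The summed level of the tested markers was 9708 and 15288 CPM in the controls and 2569 and 3821 CPM in the sevoflurane libraries. CRYAB and this sum thus shared the order of all 4 libraries, highest in control replicate 3 and lowest in sevoflurane replicate 2. Set against the mean of these markers, CRYAB deviated by -0.01 and 0.41 in the controls and by -0.25 and -0.15 in the sevoflurane libraries (log2). The part of oligodendrocyte markers in the lower level of CRYAB was not tested. In bulk tissue, fewer cells of a type, less RNA per cell and a different make-up of the piece sampled cannot be told apart.

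Markers of astrocytes, the other glial cells known to express CRYAB, moved less. Of 18 tested, GFAP, the astrocyte intermediate filament, was called lower (-1.41, SE 0.16, edgeR adjusted p = 0.00928). The other 17 were not called, and the list median was -0.15. Log2 fold changes ran from that of GFAP through -0.90 for AGT and -0.76 for S100B to 0.24 for GLUL. Those of SLC1A2, SLC1A3, ALDH1L1 and GLUL were positive. The summed level of all 18 was 12940 and 11419 CPM in the controls and 9297 and 8942 CPM in the sevoflurane libraries. No marker was at 0 in any library. HSPB8 had the same order of libraries as this sum. GFAP had 5249 and 3877 CPM in the controls and 1531 and 1898 CPM after sevoflurane. It made up most of the group difference in this sum, and the groups overlap in the sum without GFAP. The order shared with HSPB8 thus does not hold for the list without GFAP. The mean of the astrocyte markers was lowest in sevoflurane replicate 2, while HSPB8 was lowest in sevoflurane replicate 3. That mean moved from 0.17 and 0.11 to -0.15 and -0.13 (log2, around its own mean). It moved less than HSPB8, which went from 0.58 and 0.49 to -0.52 and -0.55. Against the oligodendrocyte markers HSPB8 deviated by 0.07 and -0.62 in the controls and by 0.52 and 0.03 after sevoflurane, so it did not keep their pattern within the groups. The part of these markers in the level of HSPB8 was not tested.

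**Figure D4:**
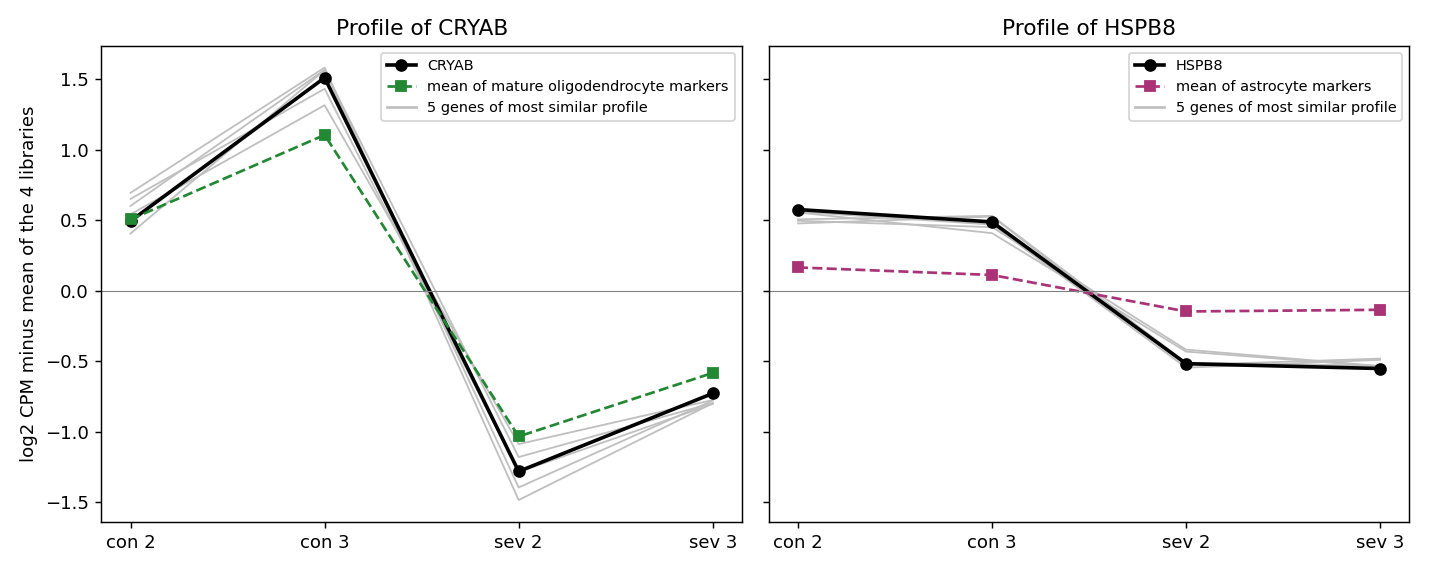
Deviation of log2 CPM from the mean of the 4 libraries (vertical axis) in each library (horizontal axis) for CRYAB on the left and HSPB8 on the right, each in black, with the 5 genes of most similar profile in grey and the mean of the oligodendrocyte or astrocyte markers dashed. CRYAB follows the myelin genes and peaks in control replicate 3 at 1.51, while HSPB8 is level within each group.

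The 5 genes nearest to HSPB8, a search added after its values were seen, were CX3CR1, REEP3, EFS, GAB1 and LLGL1, none of them a marker of the oligodendrocyte or astrocyte lists. CX3CR1 is the fractalkine receptor of microglia, and GAB1 is an adaptor of receptor tyrosine kinases. Their log2 fold changes ran from -1.04 to -0.95. Of the other marker lists, neurons summed to 11816 and 15244 CPM in the controls and to 14348 and 13868 CPM in the sevoflurane libraries, with 0 of 15 called. Microglia markers summed to 386 and 348 CPM in the controls and 268 and 323 CPM after sevoflurane, and 1 of 12, CX3CR1, was called lower (list median -0.34). Meningeal fibroblast markers summed to 942 and 700 CPM in the controls and were highest in sevoflurane replicate 2, at 2119 CPM against 945 CPM in sevoflurane replicate 3. This order of libraries is the reverse of that of the oligodendrocyte markers, and its cause was not tested. Of the 12 meningeal markers 1, the transporter gene SLC6A13, was called higher, with a list median of 1.02. Oligodendrocyte precursor markers summed to 1132 and 1093 CPM in the controls and 637 and 733 CPM after sevoflurane. Of these 12, OLIG2 (-1.19, SE 0.20) and SOX10 (-1.41, SE 0.18), transcription factor genes of the whole oligodendrocyte lineage, were called lower, with a list median of -0.74. Endothelial and mural markers ranged from 608 to 671 CPM, with 0 of 13 called.

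The rest of the chaperone system gave no called gene. Lists of families, co-chaperones and targets held 86 genes beside the 10 members, and 81 of these were tested. By edgeR 0 of the 81 were called in either direction, with 1 higher and 6 lower at an unadjusted p under 0.05 (4.35% and 5.57% of all tested genes). DESeq2 called 1 of them, DNAJB5, lower, and limma-voom called 0. The median log2 fold change of the 81 genes was 0.03, with 41 positive and 40 negative. HSPA1A and HSPA1B, the classical heat-inducible HSP70 genes, were not matched by name and are not analysed here.

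Among genes listed by symbol as small heat shock proteins, 7 of 10 were tested, and CRYAB alone was called. The tested genes of this list beside the members were HSPB2 (-0.65, SE 0.65), HSPB3 (0.92, SE 0.52), HSPB6 (-0.21, SE 0.23) and HSPB11 (-0.22, SE 0.38). These values are on the log2 scale, and none of these genes was called. HSPB2 is the direct neighbour of CRYAB in the RefSeq gene table, and in mammals the pair is arranged head to head. It had 12 and 22 counts in the controls and 14 and 16 after sevoflurane. At this depth its interval runs from -2.11 to 0.82, so a change as large as that of CRYAB could not be told from none. CRYAA, the lens alpha A-crystallin, had 1 count in all, HSPB9 had 0, and HSPB7 had 0 to 10, and these 3 did not pass the filter.

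Among 14 tested HSP70 and HSP110 genes, 0 were called by edgeR, and HSPA2, an HSP70 best known from germ cells, had the smallest p (-0.48, SE 0.20, adjusted p = 0.467). HSPA5 (-0.18, SE 0.15), the HSP70 of the endoplasmic reticulum, and HSPA9 (0.20, SE 0.13), that of mitochondria, were not called. HSPA6, a heat-inducible HSP70, had 14 to 25 counts in every library (-0.29, SE 0.61). The HSP90 family of 4 held 0 called genes, and HSP90B1 of the endoplasmic reticulum and TRAP1 of mitochondria had -0.02 and -0.01 (log2).

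Of 16 J-domain proteins 0 were called. DNAJB5, a J-domain protein close to DNAJB1, had 191.5 and 206.7 CPM in the controls and 135.8 and 129.9 CPM in the sevoflurane libraries. Its groups did not overlap, and its log2 fold change was -0.58 (SE 0.12, 95% interval -0.86 to -0.31, edgeR adjusted p = 0.0892). Of 17 co-chaperones of HSP90 and HSP70, FKBP4, an immunophilin of steroid receptor complexes, had the smallest p (-0.85, SE 0.37, adjusted p = 0.496). It stood at 18.4 CPM in control replicate 3 and between 6.28 and 8.59 CPM in the other 3 libraries. Among the 6 BAG genes BAG1 had the smallest p (0.37, SE 0.22), and among 10 chaperonin genes HSPE1 did (-1.43, SE 0.61, adjusted p = 0.483). HSPE1 had 8 to 22 counts per library, while its mitochondrial partner HSPD1 had 641 to 1095 counts and a log2 fold change of 0.11 (SE 0.13). Of 7 tested autophagy partners of BAG3 and HSPB8, VCP had the smallest p (0.12, SE 0.12, adjusted p = 0.829), and SQSTM1, the p62 receptor, had -0.09 (SE 0.15).

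Among 7 tested heat shock factors and regulators, HSF1 itself had the smallest p, and HSF2, a second heat shock factor, had 0.32 (SE 0.20). Of 28 tested HSF1 target genes, CRYAB was called lower, 0 were called higher and 27 were not called, with a median log2 fold change of -0.10. At an unadjusted p under 0.05, 6 of the 28 targets were lower and 1, HSP90AA1, was higher, against 5.57% and 4.35% of all tested genes. The list took in members chosen on this contrast, so nothing is read from these counts. The lower ones included CRYAB, HSPB8, HSPE1, FKBP4 and UBB (-0.52, SE 0.19), a ubiquitin gene. Targets on the positive side included DNAJA1 (0.24, SE 0.12) and PTGES3 (0.26, SE 0.13), an HSP90 co-chaperone. The targets thus held values on both sides of 0, from -2.07 to 0.32.

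**Figure D5:**
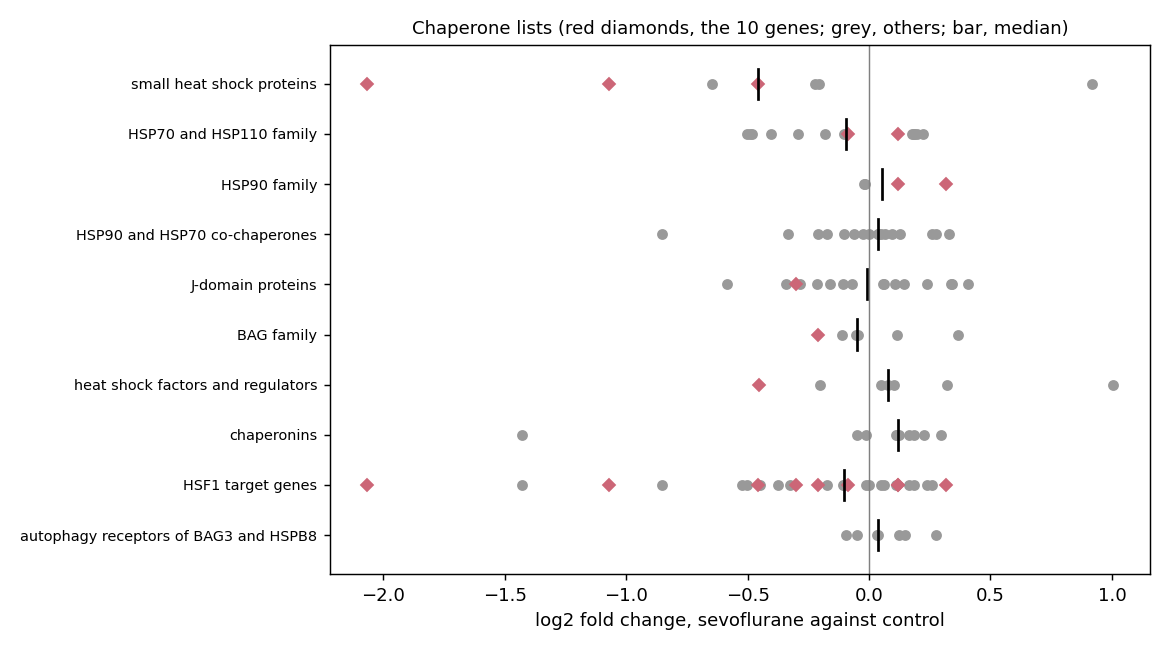
Log2 fold change of sevoflurane against control (horizontal axis) for the tested genes of each chaperone list (vertical axis), with the 10 members as red diamonds, other genes in grey and the list median as a bar. Genes in several lists appear in each, and the medians are 0.05 for HSP90, -0.01 for J-domain proteins and 0.04 for co-chaperones.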

How the data were processed

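The authors deposited raw counts of reads per gene, 1 column per library, per the file headers. HISAT2 aligned the reads, per the submitters' processing notes, and the sources used here do not give the counting program, genome build or strand setting. The counts were tested with edgeR 4.0.16 (R 4.3.3). Its filter required about 10 counts in 2 libraries, at median depth, and 15 in total. After TMM scaling, the group term was tested with edgeR's quasi-likelihood F statistic (two-sided, no covariate), fitted and adjusted over all 17693 genes. The SE is the log2 fold change divided by the square root of F. Log2 CPM used a prior count of 0.5. The steps were tested on simulated data. With 2 libraries a group, an exact permutation test cannot go below 0.333, so none was made. The members, the 10 chaperone lists and the 7 marker lists were chosen with earlier results of these data known. Every member is named, as are the called genes of each list or else its gene of smallest p. Other genes were chosen after their values were seen. HSPA1L was matched through its RefSeq number (LOC716633), and TOMM70 and AHSA2P by other symbols. RefSeq names, gene order and the overlap of neighbours came from T2T-MMU8v2.0, which may differ from the build used for counting. Promoter and protein sequences were not analysed here. Alternatives were DESeq2 1.42.0, limma-voom (limma 3.58.1), other scalings and filters, the replicate number as a block, and each library left out. Some single-gene values of the lists are not reported here.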

Additional observations from a re-analysis of the deposited data

How the results depend on the processing

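CRYAB kept its direction under all 11 alternatives, from -2.49 to -1.48 (log2), and lost its call with no filter, where 25567 genes were tested. Members called lower numbered 0 with no filter, 2 by DESeq2 (CRYAB and HSPB8) and 2 with the replicate block, where HSPB8 had adjusted p = 0.00442. Other chaperone genes called lower numbered 1 by DESeq2 and 1 with the replicate block (DNAJB5 both times), and 0 to 2 with 1 library left out, where DNAJB5 and UBB were called without control replicate 2. The labels do not say what the replicate number marks, and same-numbered libraries had r = 0.01 across genes, so no pairing was taken. CRYAB and the summed oligodendrocyte markers were higher in replicate 3 than in replicate 2 of both groups. With 1 library left out HSPA8 ran from -0.27 to 0.13, the one positive value being without control replicate 3, and the cause was not tested. Over all genes, calls lower and higher numbered 95 and 11. They were 57 and 3 with no filter, 219 and 60 by DESeq2, 341 and 170 with the replicate block, and 103 and 7 by limma-voom. With 1 library left out, which leaves a lone library assumed to vary like the other group, they ran from 118 to 232 lower and from 27 to 81 higher. Among the members BAG3 had the fewest counts, and among the other tested chaperone genes HSF2BP did (2 to 14 per library, SE 0.78).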

Other observations

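Some genes that lie beside the members in the RefSeq gene table had values of their own. YWHAG and SRRM3 beside HSPB1 had log2 fold changes of 0.17 (SE 0.12) and -0.21 (SE 0.22), and SRRM4 beside HSPB8 had -0.17 (SE 0.22). CLMP, an adhesion molecule gene beside HSPA8, had 215 and 237 counts in the controls and 446 and 558 after sevoflurane (log2 fold change 0.71, SE 0.22, edgeR adjusted p = 0.293). SCX, a tendon transcription factor gene beside HSF1, had 23 and 24 counts in the controls and 57 and 84 after sevoflurane (1.15, SE 0.42, edgeR adjusted p = 0.372). None of these neighbours was called, and they were looked up after the members' values were seen.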
